A study of Homo sapiens with 20 samples.

Results

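RNA-seq was used to compare Panc1 cells that received an siRNA against KLF10 (siKLF10) with Panc1 cells that received a control siRNA (siCont), neither of them given TGFβ. Panc1 is a human pancreatic ductal carcinoma line, and A549 is the lung adenocarcinoma line that the study used beside it. The comparison holds 6 of the 20 libraries of the series, 3 siKLF10 and 3 siCont, lettered A, B and C and chosen by their labels alone. The other Panc1 libraries are 3 with the control siRNA and TGFβ and 3 with siKLF10 and TGFβ (5 ng/ml for 72 h). A549 has 2 libraries in each of the same 4 conditions. All Panc1 libraries come from 1 line, which the labels also tag as immortalized with SV40 large T antigen. Nothing in the labels says whether libraries of a group came from separate cultures, so the p-values below measure the spread between libraries, which may be technical.

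KLF10 encodes a zinc-finger transcription factor of the Krüppel-like family that binds GC-rich and CACCC-type DNA. It was first described as a gene induced early by TGFβ, and its product is known to repress the gene of SMAD7, an inhibitor of the SMAD pathway. In liver and muscle, KLF10 is also known as a factor that answers glucose and represses genes of sugar and lipid metabolism. The study's title asks about KLF10 as a feedback brake on the epithelial-to-mesenchymal transition that TGFβ drives. The cells without TGFβ show what the siRNA did in the absence of that stimulus.

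The targeted transcript was lowered, not removed. Levels are given as CPM, read counts scaled to library size with TMM factors, always in the order of libraries A, B and C. KLF10 stood at 140, 137 and 130 CPM with the control siRNA and at 83.0, 80.8 and 77.5 CPM with siKLF10. The groups did not overlap, and KLF10 fell by 0.76 on the log2 scale (SE 0.06, adjusted p = 2.6e-09). That is a 1.69-fold lower level, so every other change in these cells was measured with much of the transcript left. In the A549 libraries labelled siKLF10 the transcript was at 102 and 109 CPM, against 110 and 107 CPM in A549 siCont (log2 change -0.05, adjusted p = 0.74), so the targeted gene went against their label, and directions drawn from them below are those of libraries labelled siKLF10.

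Markers of the line were present and 1 control library stood apart. KRT8, KRT18 and KRT19, keratins of simple epithelium, and VIM, the vimentin filament, were counted at 185 CPM or more in all 6 libraries. CDH2 was at 137 to 153 CPM in siCont and 194 to 206 CPM in siKLF10. The other markers of the line were low and highest in siCont A. KRT7 was at 26.6, 10.5 and 11.2 CPM in siCont and 5.00 to 6.17 CPM in siKLF10, and EPCAM at 12.2, 3.94 and 5.72 CPM against 3.24 to 4.24 CPM. Of the 8 markers of pancreatic acinar and endocrine cells, 6 were at 0 in all 6 libraries. CDKN2A, which is deleted in Panc1, gave 56, 18 and 39 reads in the siCont libraries and 1, 0 and 0 reads in siKLF10. KRT5, a basal keratin, gave 60.7, 21.8 and 22.3 CPM in siCont and 5.81 to 6.29 CPM in siKLF10, and MUC2, an intestinal goblet-cell mucin, gave 25.3, 5.44 and 8.85 CPM against 0.151 to 0.455 CPM. Over the whole lists, 16 squamous markers summed to 237, 147 and 149 CPM in siCont and 80.3 to 89.7 CPM in siKLF10, with KRT6B at 0 throughout and KRT14 at 0 or 1 read. SFN made up much of this sum, at 79.8, 78.7 and 78.9 CPM in siCont and 43.1 to 54.7 CPM in siKLF10, and did not stand out in siCont A. DSC3 overlapped between the groups, at 10.7, 7.48 and 8.12 CPM against 7.20, 11.1 and 9.40 CPM. The 5 goblet markers summed to 27.0, 7.41 and 10.8 CPM against 1.88 to 3.79 CPM, a sum that MUC2 carries. TFF3 was at 0 to 3 reads, and FCGBP, the other goblet marker with enough reads to be tested, was higher in siKLF10 (0.810, 1.18 and 1.20 CPM against 1.20, 1.89 and 2.88 CPM), a call lost in 6 of 11 alternatives. The siCont libraries, most of all A, thus held reads of a second profile that the siKLF10 and TGFβ libraries held less of. For genes that Panc1 carries, fewer cells of a type and less RNA per cell cannot be told apart in bulk samples. Reads of CDKN2A, which Panc1 lacks, were part of this profile, and the source of the profile was not tested. Genes that may follow it were defined as those in which siCont A stood above B and C, by more than 3 standard errors. Scaled on KRT5, this excess also had to stand for at least 10% of their mean siCont level. Proportion to KRT5 was assumed and not tested, and siCont B and C did not have to lie above siKLF10. This rule took in 138 genes, 1.04% of those tested. After siKLF10, 69 of the 138 were called, 65 of them lower, and the rule may include genes high in siCont A for other reasons. These are named as second-profile genes wherever they appear, and most results that hold them are also given without siCont A or without these genes.

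**Figure D1:**
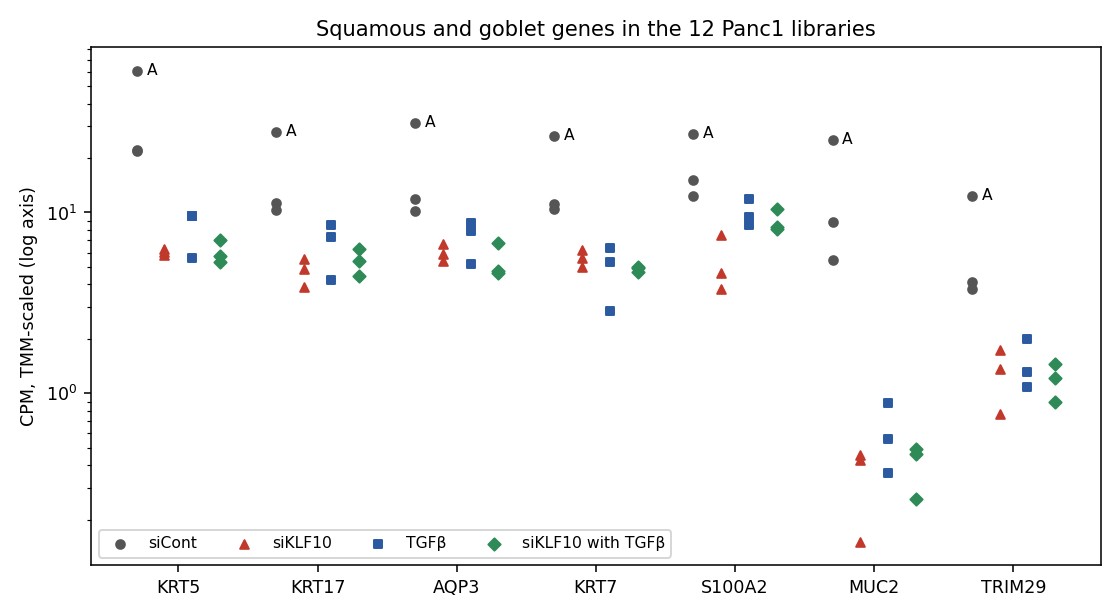
CPM (log axis) of 7 squamous, ductal and goblet genes in the 12 Panc1 libraries, 1 point per library, with siCont A lettered. For KRT5, MUC2 and each of the other genes shown, siCont A is the highest point, siCont B and C come next, and the siKLF10 and TGFβ libraries lie lower, from 5.81 to 6.29 CPM for KRT5 in siKLF10.

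Across all genes, many small changes were called. A gene is "called" here when its adjusted p from edgeR's quasi-likelihood test was under 0.05. Of 13218 genes tested, 4700 were called, which is 35.6% of them: 2286 were higher after siKLF10 (17.3%) and 2414 were lower (18.3%). The counts given below for each list are to be read beside these shares. The changes were mostly small, since 3444 of the called genes (73.3%) moved by less than 1.5-fold, and 418 moved by at least 2-fold, 208 up and 210 down. The 3 libraries of one group all lay above the 3 of the other for 45.6% of genes, so separation of the groups alone marks no gene out. The median log2 change over all genes was 0.000907. In the authors' deposited table of the same comparison, 3754 genes had an adjusted p under 0.05, of which 3709 were also called here, all 3709 in the same direction.

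**Figure D2:**
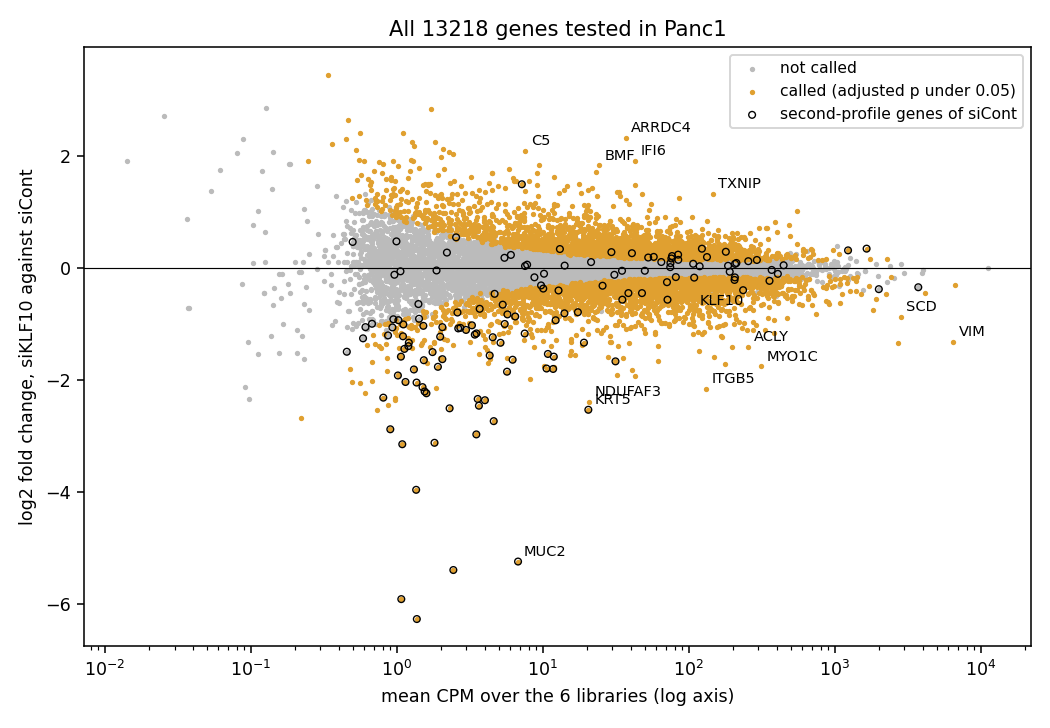
Log2 fold change of siKLF10 against siCont (y axis) over the mean CPM of the 6 libraries (x axis, log), 1 point per gene, with called genes in orange and second-profile genes ringed. Called genes lie on both sides of 0 at every level, ARRDC4 and C5 stand highest among the labelled genes, and the deepest falls, MUC2 among them at -5.24, are ringed. The MUC2 value rests on 5, 2 and 6 reads in siKLF10, so its size is uncertain.

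The 15 largest rises among genes of at least 5 CPM were of mixed function. ARRDC4, an alpha-arrestin whose transcription follows glucose supply, went from 12.4, 11.8 and 12.4 CPM to 54.9, 67.3 and 62.2 CPM, a 5.02-fold rise (log2 2.33, SE 0.10, adjusted p = 1.8e-13). C5, the complement component whose cleavage yields C5a, went from 2.65, 3.55 and 2.40 CPM to 10.8, 13.5 and 12.4 CPM, a 4.30-fold rise. BMF, a BH3-only protein that promotes apoptosis, stood at 10.6, 10.7 and 10.6 CPM in siCont and at 35.9, 35.4 and 42.9 CPM in siKLF10 (3.58-fold). In each of these genes the 3 siKLF10 libraries lay far above the 3 siCont libraries. Neuronal and synaptic names were also in the list: CBLN2, a synapse organizer, rose 3.59-fold, SYT5, a vesicle calcium sensor, 3.42-fold, PCDH9, a protocadherin, 3.10-fold, and SYN1, a synapsin, 2.96-fold. KRCC1 (3.30-fold), IFT46 (3.24-fold, a part of the transport machinery of cilia), FKBP7 (3.06-fold, an ER prolyl isomerase) and CTSO (2.84-fold, a cysteine cathepsin) rose as well. The remaining 4 were the interferon-related IFI6, MX1, SAMD9L and XAF1, given below. SYN1 shares exon bases with ARAF on the opposite strand and BMF with BMF-AS1, and how strand was handled in counting is not stated, so both are uncertain.

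Of the 15 largest falls, 5 were second-profile genes, namely MUC2, KRT5, TIMP3, S100A2 and KRT17, and the other 10 were not. NDUFAF3, an assembly factor of respiratory complex I, went from 29.5, 37.0 and 37.3 CPM to 6.94, 6.26 and 6.59 CPM (5.25-fold lower, log2 -2.39, SE 0.14). Its exons overlap those of DALRD3 on the opposite strand. ITGB5, the integrin β5 subunit that pairs with αv to bind vitronectin, went from 216, 200 and 227 CPM to 47.7, 47.7 and 49.6 CPM (4.43-fold lower, adjusted p = 2.1e-16). MYO1C, a class I myosin that moves membrane along actin, went from 453, 480 and 506 CPM to 145, 142 and 141 CPM (3.37-fold lower). The siKLF10 libraries of these 3 genes lay close together and far below every siCont library. CTHRC1, a secreted matrix glycoprotein, fell 3.94-fold, GABBR2, a GABA-B receptor subunit, 3.80-fold, NCS1, a neuronal calcium sensor, 3.72-fold, and CD68, a lysosomal membrane glycoprotein best known from macrophages, 3.26-fold. TTC7B (3.52-fold), PAQR5 (3.40-fold) and MREG (3.35-fold) completed the list.

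Without siCont A these second-profile genes fell less. That was fixed in advance, since the rule took genes highest in siCont A. KRT5 was at -1.87 instead of -2.52 on the log2 scale, MUC2 at -4.37 instead of -5.24, TIMP3 at -1.22 instead of -1.84 and KRT17 at -1.18 instead of -1.79. MUC2 had only 5, 2 and 6 reads in siKLF10 A, B and C, near the level of 3 counts, so the size of its fall is uncertain. S100A2, 3.47-fold lower with all libraries, was at -1.39. All 5 were still called, with adjusted p-values of 0.00046 or less, because siCont B and C also lay above the siKLF10 libraries. But siCont B and C held the second profile too, with 18 and 39 reads of CDKN2A against 1, 0 and 0 in siKLF10. A call kept without siCont A therefore does not separate a gene from this profile. KRT17 lost its call when only the 6 libraries were fitted or siKLF10 C was left out, and TIMP3 when only the 6 libraries were fitted.

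**Figure D3:**
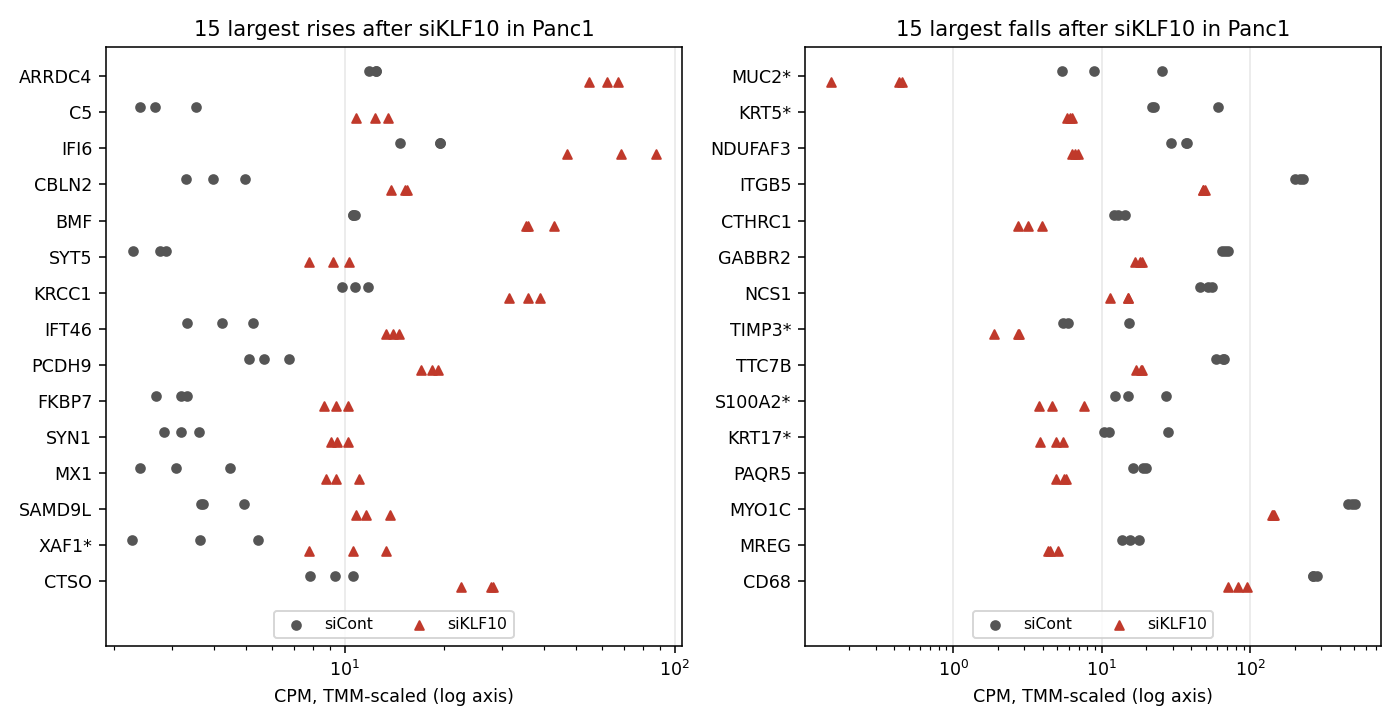
CPM (log axis) of the 15 largest rises (left) and 15 largest falls (right), with 1 grey circle per siCont library and 1 red triangle per siKLF10 library; an asterisk marks second-profile genes. The groups are separate in every row, as the choice of genes required, and the siCont points of MUC2, KRT5, TIMP3, S100A2 and KRT17 include 1 library far to the right.

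A second alpha-arrestin, TXNIP, rose beside ARRDC4. Alpha-arrestins are adaptors that pull membrane proteins into the cell, and TXNIP and ARRDC4, the pair best known to act on glucose transporters, are switched on by the sugar-sensing factors MondoA (MLXIP) and ChREBP (MLXIPL) with their partner MLX. TXNIP went from 82.4, 86.9 and 77.9 CPM to 206, 216 and 203 CPM, a 2.53-fold rise (log2 1.34, SE 0.06), and ARRDC3 rose 1.51-fold. The siKLF10 libraries of all 3 lay above every siCont library. Of the sensing factors, MLX fell 1.30-fold (adjusted p = 0.00013), while MLXIP was at 68.6, 65.6 and 73.3 CPM in siCont and 79.6, 65.1 and 71.7 CPM in siKLF10, which did not pass the test. In all, 3 of 9 members measured rose and 2 fell, and ARRDC2, the other fall, lost its call in 6 of 11 alternatives. SLC2A1, the glucose transporter GLUT1, also rose, from 22.0, 21.3 and 18.7 CPM to 41.3, 34.5 and 35.8 CPM (1.80-fold, adjusted p = 1.1e-07). The promoter of ARRDC4 is shown because these factors bind E-box pairs; the stretch (RefSeq, GRCh38.p14, chr15:97960456-97960535, plus strand) holds 1 E-box, CACGTG, in capitals, 210 bases before the start.
ARRDC4: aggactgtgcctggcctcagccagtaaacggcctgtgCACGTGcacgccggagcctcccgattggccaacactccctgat
The same 6 letters occur in 7.43% of all 27305 promoters of the same length (300 bases) in the RefSeq table. The promoter of TXNIP held none. Among the 15 largest rises, 14 promoters were matched by symbol, and that of ARRDC4 was the only 1 with the letters. The match describes the sequence and does not show that anything binds there.

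Most glycolysis genes fell while a glucose transporter rose. Glycolysis splits glucose to pyruvate in the cytosol, and cancer lines use it heavily. Of 20 glycolysis genes measured, 15 fell and 2 rose, with a median log2 change of -0.46 against 0.000907 over all genes. The falls included PFKFB3, which makes the activator of phosphofructokinase (22.5, 20.3 and 24.1 CPM to 8.82, 9.58 and 8.64 CPM, 2.48-fold), ENO2, the neuronal enolase (1.71-fold), and ALDOC, the brain aldolase (1.87-fold). Other enzymes of the route fell less: ALDOA 1.57-fold, PKM2 (the files' symbol for pyruvate kinase M) 1.47-fold, LDHA 1.38-fold, ENO1 1.37-fold and GAPDH 1.32-fold. Each had groups that did not overlap, as in LDHA, with 1932, 1804 and 1546 CPM against 1326, 1219 and 1282 CPM. These enzymes have processed pseudogene copies, so their counts rest on uniquely placed reads. The 2 rises were SLC2A1 and HK2, a hexokinase (1.40-fold). Among 13 hypoxia genes 4 rose and 3 fell; EPAS1, which encodes HIF-2α, went from 47.7, 44.1 and 49.3 CPM to 18.0, 18.9 and 17.4 CPM (2.60-fold lower), and HIF1A fell 1.30-fold.

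Fatty acid synthesis fell beside cholesterol synthesis. Both start from cytosolic acetyl-CoA, and the SREBP factors drive their enzymes, SREBP2 (SREBF2) mostly those of cholesterol and SREBP1 (SREBF1) mostly those of fatty acids. Of 24 fatty acid genes measured, 13 fell and 3 rose (1 without siKLF10 B), with a median log2 change of -0.17. ACLY, which makes acetyl-CoA from citrate, went from 372, 358 and 377 CPM to 133, 140 and 145 CPM (2.65-fold lower, log2 -1.41, SE 0.06). FASN, the synthase itself, went from 462, 473 and 560 CPM to 276, 251 and 264 CPM (1.89-fold lower). SCD, the desaturase that makes oleate, went from 3623, 3537 and 3764 CPM to 1987, 2057 and 1936 CPM (1.83-fold lower). All 3 were lower in every siKLF10 library than in any siCont library. FADS2, a desaturase of polyunsaturated chains, fell 2.01-fold, ELOVL5, an elongase, 1.54-fold, and LPIN1, a phosphatidate phosphatase, 1.82-fold. FADS2 shares exon bases with FEN1 on the same strand and FADS1 on the opposite one. ACACA, which makes malonyl-CoA, fell 1.13-fold, a call that 5 of 11 alternatives did not keep. The rises were in glycerolipid and acyl-CoA steps and included DGAT2 (1.45-fold) and ACSL5 (1.73-fold, not called in 3 of 11 alternatives).

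The cholesterol genes differed by role. Of 21 synthesis enzymes measured, 17 fell and none rose, with a median log2 change of -0.57. HSD17B7, a late-step reductase, and FDPS, which makes farnesyl diphosphate, fell 2.19-fold and 2.04-fold, DHCR7, the last reductase, fell 1.76-fold and SQLE 1.53-fold. Among the sensors, INSIG1, which holds SREBPs in the ER, went from 193, 178 and 172 CPM to 89.3, 95.6 and 89.9 CPM (1.97-fold lower), and SREBF2 and SREBF1 fell 1.46-fold and 1.33-fold. In the same role INSIG2, the relative of INSIG1, and MBTPS2, the second protease that releases SREBPs, rose 1.31-fold and 1.42-fold, so that of 7 sensing genes 4 fell and 2 rose. Of 4 genes of efflux and its LXR receptors 2 rose and 1 fell. ABCA1, the pump that loads cholesterol onto apolipoprotein A-I, went from 13.2, 14.6 and 13.2 CPM to 24.7, 30.4 and 23.5 CPM (1.92-fold higher, adjusted p = 3.1e-07). NR1H3, the LXRα receptor, rose 1.56-fold, and NR1H2, the LXRβ receptor, fell by 0.43 on the log2 scale. Over the list of 37, 25 fell and 4 rose, and without siCont A 24 fell and 4 rose. SREBF2 is shown because its promoter alone, of 30 matched by symbol, held the sterol regulatory element in the form searched, TCACNCCAC on either strand (RefSeq, GRCh38.p14, chr22:41832936-41833015, plus strand, element in capitals).
SREBF2: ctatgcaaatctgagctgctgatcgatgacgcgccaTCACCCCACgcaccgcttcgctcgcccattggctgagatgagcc
The same form is in 1.15% of all promoters, so nothing is read from its count in the list.

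Genes of the interferon response rose widely and mostly by little. Interferons signal through a complex that holds STAT2 and IRF9, which binds the interferon-stimulated response element (ISRE) of antiviral genes. Of 53 genes measured, 30 rose and 2 fell, with a median log2 change of 0.38. The ligand IFNB1 had too few reads to be tested. The sensors of viral RNA and DNA rose in 6 of 7 cases, among them IFIH1 (MDA5), from 15.5, 17.6 and 15.2 CPM to 27.6, 33.2 and 29.5 CPM (1.87-fold). Of the signalling factors IRF9 rose 1.41-fold and STAT2 1.25-fold, 2 of the 6 factors measured, and none fell. Of the 35 antiviral effectors 21 rose and 2 fell. SAMD9L went from 4.93, 3.70 and 3.66 CPM to 10.8, 13.7 and 11.6 CPM (2.94-fold), TRIM22 rose 3.79-fold from under 1 CPM, and XAF1, itself a second-profile gene by the rule above, rose 2.84-fold, and its log2 change was 1.87 without siCont A. ISG15 and PARP14 rose 1.68-fold and 1.32-fold. IFI6, the largest rise of the list, was at 19.4, 19.4 and 14.6 CPM in siCont and varied among the siKLF10 libraries, at 87.5, 47.1 and 68.7 CPM. The 2 falls were chosen after their values were seen: IFITM3, a membrane restriction factor, went from 234, 237 and 249 CPM to 162, 118 and 125 CPM, and its near-identical neighbour IFITM2 fell 1.80-fold, so the pair may share reads.

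Promoters with the ISRE core did not all move alike. The core was searched on both strands as GAAA repeated after any pair of bases, and 38 of the 53 genes matched a promoter by symbol. That is too few for a share over the list, so the count is given only as such. Of 21 promoters with the core, 14 belonged to genes that rose, 1 to a gene that fell and 6 to genes not called, and of 17 without it, 11 belonged to genes that rose. Across all promoters 3.65% held the core. Stretches from 4 of them are shown to set a gene that rose 3.80-fold (IFI6) and one that rose 2.70-fold (IFIT1) beside one that was flat (OAS3) and one that fell (IFITM3), with the core, or the letters of its other strand, in capitals. They lie at chr1:27672304-27672383 (minus strand), chr10:89392472-89392551 (plus), chr12:112938296-112938375 (plus) and chr11:320868-320947 (minus) in RefSeq's GRCh38.p14.
IFI6: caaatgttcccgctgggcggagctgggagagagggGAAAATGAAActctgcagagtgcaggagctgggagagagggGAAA
IFIT1: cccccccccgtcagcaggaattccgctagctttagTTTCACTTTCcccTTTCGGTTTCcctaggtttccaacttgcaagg
OAS3: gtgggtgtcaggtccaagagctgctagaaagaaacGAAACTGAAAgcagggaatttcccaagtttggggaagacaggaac
IFITM3: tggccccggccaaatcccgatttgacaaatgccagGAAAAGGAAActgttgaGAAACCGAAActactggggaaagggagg
The IFI6 stretch ends inside a further match, of which only the first GAAA is shown. IFIT1 was at 11.6, 11.7 and 11.8 CPM in siCont and 33.2, 31.2 and 30.6 CPM in siKLF10. OAS3 was at 94.0, 97.1 and 99.6 CPM and at 97.1, 94.3 and 99.1 CPM, with both groups over the same range.

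Genes of peptide trimming for antigen presentation were higher. ERAP1, the ER aminopeptidase that cuts peptides to fit MHC class I, went from 17.1, 20.6 and 20.8 CPM to 44.0, 51.1 and 48.2 CPM (2.45-fold), and ERAP2 rose 1.40-fold. ERAP1 exons overlap those of CAST on the opposite strand. Of 11 genes of the route measured 4 rose and none fell by edgeR's test, a share of calls close to the 35.6% over all genes, and without siKLF10 A 2 fell. PSME1, a proteasome activator, rose 1.21-fold, and HLA-B rose 1.83-fold from under 2 CPM, a call lost in 3 of 11 alternatives.

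**Figure D4:**
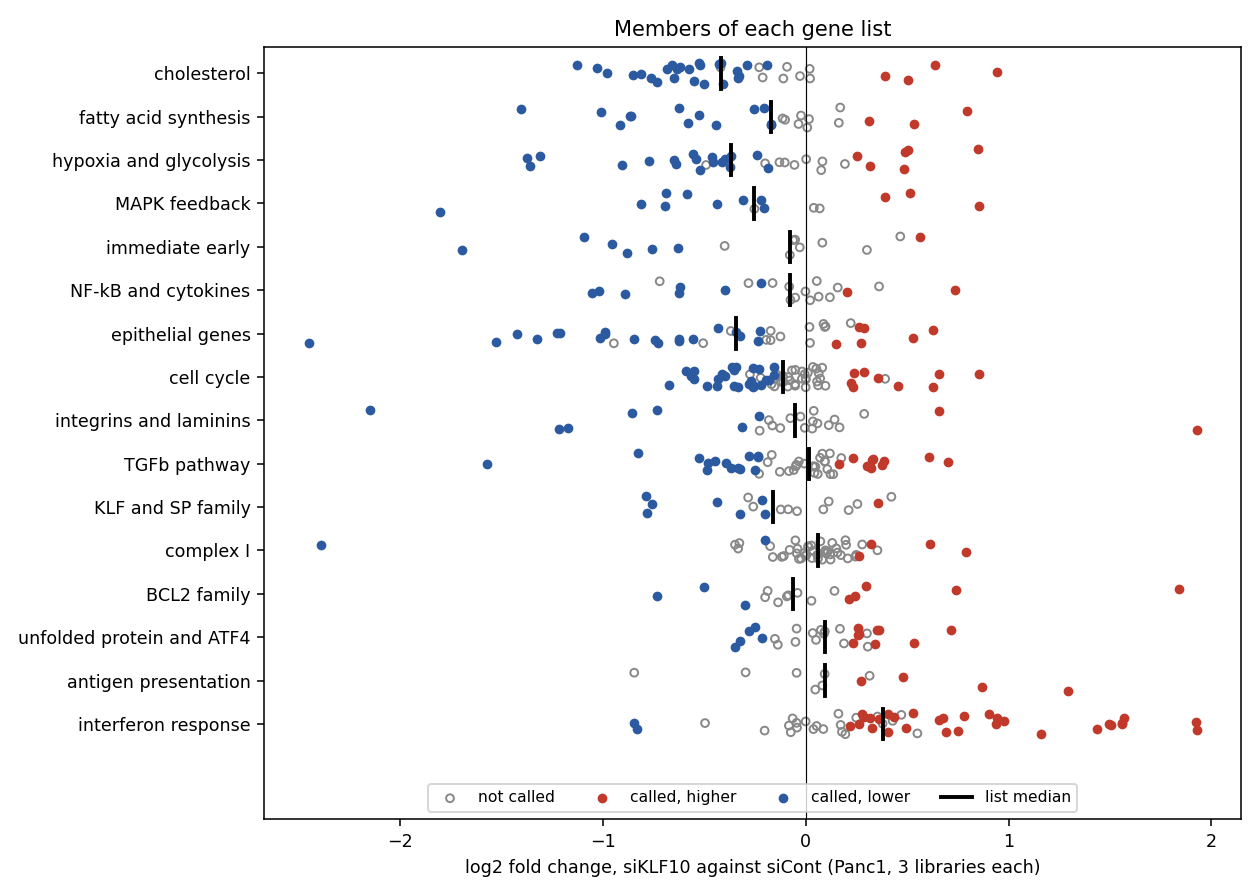
Log2 fold change (x axis) of every measured member of 16 gene lists, 1 point per gene, filled where called and with a bar at the list's median. The points of the cholesterol and glycolysis lists lie mostly left of 0 and those of the interferon list mostly right, with medians of -0.42 for cholesterol and 0.38 for interferon, while complex I sits around 0 apart from NDUFAF3 at -2.39.

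The cell-surface and filament genes did not shift as 1 programme. Epithelial genes, which hold cells in sheets, fell in 20 of 39 cases and rose in 6, with a median log2 change of -0.35, but 8 members were second-profile genes. Without those 8, 12 of 31 fell and 6 rose and the median was -0.20. Without siCont A 15 fell and 5 rose, without siKLF10 C 13 fell, and without siCont B 3 rose. MAL2 (log2 -2.45, and -1.96 without siCont A) and KRT7 (-1.53, and -0.96) were 2 of those 8, and the call of KRT7 was lost in 3 of 11 alternatives. Outside the second profile, ESRP2, a splicing factor of epithelial cells, fell 1.99-fold, PKP3, a desmosome plaque protein, went from 10.8, 12.8 and 12.7 CPM to 7.71, 5.96 and 6.59 CPM, and CLDN4, a claudin, fell 1.67-fold. PPL, a desmosome linker, rose 1.22-fold. CDH1, E-cadherin, was at 18.7, 13.6 and 12.5 CPM in siCont and 10.7, 13.2 and 10.7 CPM in siKLF10, and did not pass the test (adjusted p = 0.062). The mesenchymal list had 8 rises and 9 falls of 27, with 5 rises without siCont A or without siKLF10 C. Its largest change was in COL4A1, a basement membrane collagen, which went from 2.28, 1.34 and 0.799 CPM to 0.257, 0.151 and 0.379 CPM. In siKLF10 A and B that is at or under the level of 3 counts (0.269 and 0.236 CPM), so its fold is not given here and the size of its fall is uncertain. VIM fell 2.49-fold and the lamins LMNB2 and LMNA fell 2.32-fold and 1.39-fold, while CDH2, N-cadherin, rose 1.36-fold and 2 other collagens, COL7A1 and COL5A1, rose 1.82-fold and 1.55-fold. COL5A2 fell 1.35-fold and FBN1, fibrillin, rose 1.49-fold. Among the regulators of the transition, ZEB1 fell 1.35-fold, ZEB2 rose 1.20-fold (not called in 2 of 11 alternatives), TWIST2 rose 1.88-fold from under 1 CPM (not called in 8 of 11 alternatives), and SNAI1 and SNAI2 did not pass the test (adjusted p = 0.16 and 0.072).

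Of 15 integrin subunits, which anchor cells to matrix, 5 fell and 2 rose. Of 9 laminins, the matrix proteins that some of them bind, 2 fell, LAMB3 and LAMA3, both second-profile genes that were not called without siCont A. Over the 24 genes the calls were close in share to the 35.6% over all genes, and 1 rise was lost without siCont C. ITGA10 fell 2.26-fold, ITGB4, the hemidesmosome subunit, went from 38.4, 29.0 and 36.5 CPM to 18.1, 21.0 and 23.2 CPM (1.67-fold lower), and ITGB1, the common partner, fell 1.24-fold. ITGB5 had the largest fall of these 24 genes.

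Genes of the TGFβ pathway moved both ways without the ligand added. Of 48 measured, 14 fell and 10 rose, with a median log2 change of 0.01. Over all genes 18.3% fell and 17.3% rose. LTBP2, a matrix protein of the latent TGFβ-binding family, went from 205, 226 and 233 CPM to 70.5, 78.6 and 74.0 CPM (2.98-fold lower). TGFBR3, the co-receptor betaglycan, fell 1.77-fold and INHBA, an activin subunit, 1.44-fold, the latter not called in 2 of 11 alternatives. ACVR2A, an activin receptor, rose 1.52-fold. SMAD6, an inhibitory SMAD, lay between 17.4 and 18.6 CPM in siCont and between 28.2 and 30.1 CPM in siKLF10 (1.63-fold higher). SMAD7, the KLF10 target of the background, was at 10.4, 9.85 and 11.1 CPM in siCont and 10.8, 14.0 and 13.9 CPM in siKLF10 (log2 0.30, adjusted p = 0.043), with overlapping groups, and it was not called in 8 of 11 alternatives. Among KLF10's own relatives 7 of 18 fell, KLF10 included, and 1 rose (3 without siCont C, 2 without siKLF10 A). KLF11, the closest relative, rose 1.28-fold, while SP2 fell 1.73-fold, SP1 1.25-fold, KLF6 1.16-fold and KLF5, a second-profile gene, 1.72-fold (log2 -0.78, and -0.59 without siCont A).

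Feedback genes of the MAPK pathway mostly fell. ERK signalling induces Sprouty proteins, dual-specificity phosphatases and ETS factors that curb or relay it, and 9 of 15 such genes fell and 3 rose (7 and 3 of 13 without the 2 second-profile genes). SPRY4 went from 134, 139 and 136 CPM to 76.8, 73.0 and 83.2 CPM (1.76-fold lower), and the ETS factors ETV5 and ETV4 fell by 0.69 and 0.59 on the log2 scale. DUSP16 (1.81-fold), DUSP10 (1.43-fold, not called in 3 of 11 alternatives) and SPRY2 (1.31-fold) rose. DUSP4, a second-profile gene, was not called without siCont A. Early-response factors fell in 6 of 15 cases and rose in 1, where 18.3% of all genes fell and 17.3% rose. SRF went from 58.5, 58.4 and 60.3 CPM to 33.6, 25.8 and 32.1 CPM (1.94-fold lower), EGR1 fell 2.13-fold and IER5 1.84-fold.

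Genes of cell division and cell death moved both ways, and their counts stand beside 18.3% of all genes that fell and 17.3% that rose. None of 20 mitosis genes rose and 11 fell, such as KIF20A, a kinesin of cytokinesis (1.48-fold), and 10 of 24 replication genes fell and 1 rose. ORC1, of the origin recognition complex, went from 27.0, 26.6 and 27.8 CPM to 17.7, 16.4 and 17.0 CPM (1.59-fold lower), while CDK6, a G1 kinase, went from 153, 140 and 170 CPM to 219, 264 and 232 CPM (1.55-fold higher). Of 12 cyclins and their kinases 4 rose and 3 fell, and of 11 inhibitors and RB family genes 4 rose and 2 fell. In the BCL2 family 5 of 16 rose and 3 fell, a balance that turned to 3 and 5 without siKLF10 A, and 3 rose without siCont B. Beside BMF, BCL2L11 (BIM) rose 1.23-fold and the protective MCL1 rose 1.16-fold, and BAD fell 1.42-fold. Of the 15 genes of the ATF4 branch of the stress response 6 rose and 1 fell, with DDIT3 (CHOP) at 1.64-fold and ASNS, asparagine synthetase, at 1.45-fold higher.

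The fall of NDUFAF3 was not shared by its complex. Of 48 complex I genes measured 4 rose and 2 fell, a share of calls below the 35.6% over all genes, and the falls numbered 1 to 4 as single libraries were left out (4 without siCont A or siKLF10 A, 1 without siCont B, siCont C or siKLF10 C), with 2 rises without siKLF10 A. NDUFAF1, another assembly factor, rose from 22.3, 22.5 and 22.2 CPM to 35.4, 35.1 and 32.1 CPM (1.53-fold). Complement genes, C5 among them, moved both ways, with 3 rises and 4 falls among 14 genes. In the machinery through which small RNAs silence their targets, EIF2C2 (Argonaute 2) went from 34.5, 36.2 and 39.4 CPM to 16.4, 18.9 and 17.7 CPM (2.07-fold lower), EIF2C4 (Argonaute 4) rose 1.85-fold, and the scaffold genes TNRC6C, TNRC6B and TNRC6A rose 1.48-fold, 1.39-fold and 1.26-fold. Of the 15 genes of this machinery 4 rose and 3 fell, or 5 without siCont A.

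The same siRNA was also measured in cells given TGFβ, in 6 libraries that share none with the comparison above. There 41.7% of the same genes were called (5513). Of the 4700 genes called without TGFβ, 3176 were called in both (67.6% of the first list and 57.6% of the second), 3102 of them in the same direction and 74 in opposite directions. Over all genes the 2 log2 changes had a Pearson correlation of 0.63 (Spearman 0.67), a description over 13218 genes that are not independent. The difference between the settings was called for 584 genes, 4.42% of those tested, among them 333 of the 4700; in 218 of these the change was smaller with TGFβ and in 115 larger. That number of 584 leaned on single libraries: it was 349 without library B and 1035 without library A of siKLF10 with TGFβ, 360 without siKLF10 C, and 388, 375 and 386 without TGFβ A, B and C.

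ARRDC4, C5, NDUFAF3 and ITGB5 moved the same way in both settings. With TGFβ, ITGB5 went from 458, 483 and 461 CPM to 77.8, 78.2 and 75.9 CPM, a larger fall than without it (difference -0.45, adjusted p = 0.0029). NDUFAF3 changed by -2.50 on the log2 scale with TGFβ and C5 by 1.48, and ARRDC4 by 1.82 (differences not called, adjusted p = 0.84, 0.21 and 0.066). For ARRDC4 the levels themselves were lower with TGFβ, at 8.14, 7.27 and 8.64 CPM with the control siRNA and 24.8, 28.9 and 31.7 CPM with siKLF10.

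Other genes changed by a different amount, or in the opposite direction, when TGFβ was present. BMF rose by 1.84 on the log2 scale without and by 0.58 with TGFβ (adjusted p of the difference 1.5e-06). EPAS1 fell by 1.38 on the log2 scale without TGFβ, while with it the libraries were at 37.9, 37.4 and 39.7 CPM and 43.3, 46.6 and 39.7 CPM (0.17, not called; difference 1.55, adjusted p = 2.6e-08). PADI2, a peptidylarginine deiminase, rose by 0.68 without and fell by 0.63 with TGFβ. The keratins KRT8 and KRT18, not called without TGFβ (0.09 and 0.10), rose by 0.96 and 0.74 with it (adjusted p of the difference 0.00014 for both). COL5A2 changed by -0.43 without and 0.47 with TGFβ, and COL4A1 by -2.43 and 1.06 (adjusted p of the difference 3.4e-06 and 0.00028). For COL4A1 the change without TGFβ rests on siKLF10 levels near 3 counts. Of the interferon list, 10 of 53 rose and 7 fell with TGFβ, and the difference was called for 13 genes, such as IFIT1, at 1.44 without and 0.57 with it. Among glycolysis genes 2 of 20 rose and 9 fell with TGFβ, and the difference was called for 7, among them LDHA (-0.46 and -0.01) and HK2 (0.49 and 1.43). Of the cholesterol list 22 of 37 fell and 4 rose with TGFβ, and the difference was called for 8. SCD changed by -0.87 without and -0.43 with TGFβ (adjusted p of the difference 0.0014).

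**Figure D5:**
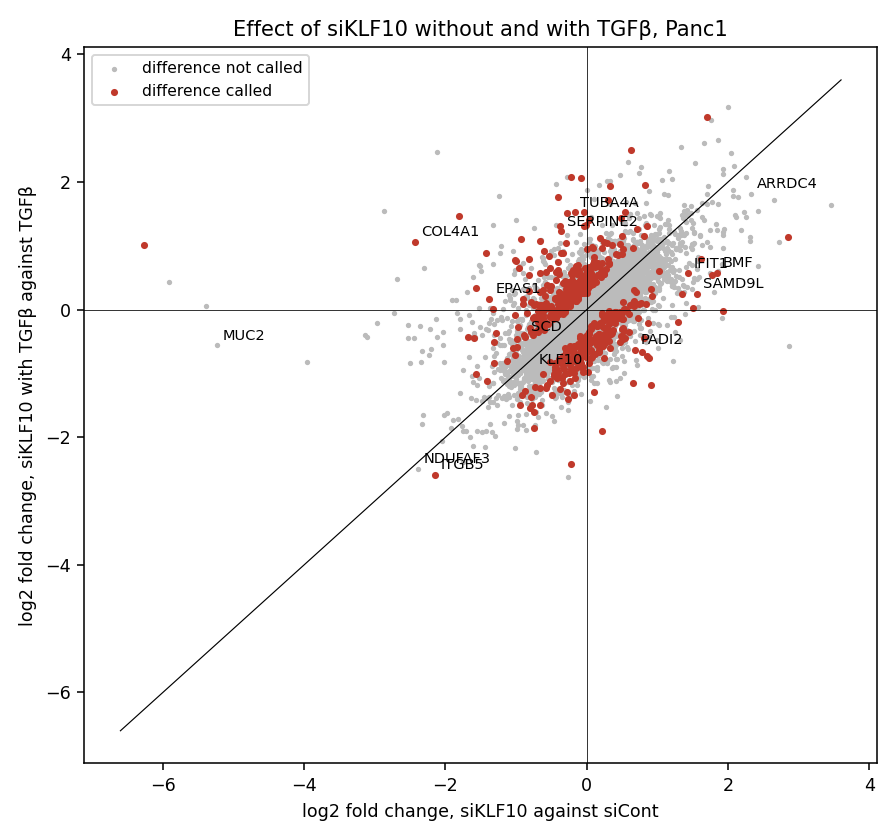
Log2 fold change after siKLF10 without TGFβ (x axis) and with TGFβ (y axis) for each gene tested in Panc1, red where the difference was called; the diagonal marks equal change. ITGB5 and NDUFAF3 lie near the diagonal at the lower left and ARRDC4 at the upper right, while EPAS1 and MUC2 lie left of it near 0 on the y axis.

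In A549, whose libraries labelled siKLF10 did not show a lower KLF10 level, 19.5% of genes were called (2758 of 14124). Of the 4516 Panc1-called genes tested there, 1134 were called, 817 in the same direction and 317 in the opposite one. The difference between the lines was called for 17.2% of 15058 genes. Leaving out any 1 of the 4 A549 libraries lowered the A549 calls to between 1326 and 1638, and the differences between lines became 1570 without A549 siKLF10 A and 1614 without A549 siCont B. Several of the largest Panc1 falls were also lower in A549: NDUFAF3 went from 50.6 and 49.7 CPM to 14.2 and 15.9 CPM (-1.74 on the log2 scale), ITGB5 from 503 and 477 CPM to 205 and 200 CPM (-1.28), MREG by -1.66, NCS1 by -1.07, MYO1C by -1.03 and CD68 by -0.93. For NDUFAF3 and MREG the difference between lines was not called (adjusted p = 0.054 and 0.92). ARRDC4 rose in both lines (0.98 in A549, difference 1.37). C5 went the other way, from 284 and 315 CPM to 97.5 and 112 CPM in A549 (-1.52), and the difference of 3.65 was called (adjusted p = 6.8e-16). Of the cholesterol synthesis enzymes 3 of 21 fell and 1 rose in A549, and the difference between lines was called for 13. Of the glycolysis genes 7 of 20 rose and 1 fell there, and the difference was called for 13. FASN rose by 0.39 in A549, and that difference was called too (adjusted p = 7.8e-09).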

How the data were processed

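Read counts per gene were analysed as deposited by the authors, 1 table for each of 20 libraries, and 6 of these make the main comparison. Per the labels, poly(A) RNA was made into directional libraries. Per the submitters' processing notes, TopHat, Bowtie2, HTSeq 0.6.0 and DESeq2 were used with build hg19, in no stated roles. The sources used here give no strand setting. Summary lines were dropped, and 34.5 to 36.9% of uniquely mapped reads lay in no gene. Gene counts summed to 11152625 to 14988120 in the 6 libraries, so 3 counts correspond to 0.200 to 0.269 CPM, which covers counting error only.

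Genes were kept by filterByExpr (minimum count 10, total 15), scaled by TMM and fitted with edgeR 4.0.16 (R 4.3.3): a robust quasi-likelihood group-means model over the 12 Panc1 libraries (8 residual degrees of freedom), the 8 A549 libraries, or all 20 for the difference between lines. P-values were adjusted by Benjamini-Hochberg over all genes tested, two-sided, and SE is the log2 change divided by the root of the F statistic. The model was tested on simulated data. Replicate pairs of Panc1 differed beyond counting noise (chi-square per degree of freedom 2.06 to 12.5). CPM are TMM-scaled.

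The authors' deposited table of the same comparison holds, per the file headers, a base mean signal, log2 values of change and error, a test score, and p-values, and was used only to compare calls. Tables of the authors' other comparisons were not used.

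Named genes are KLF10, the 15 largest rises and falls among called genes of at least 5 CPM whose groups did not overlap, the 6 largest called changes of each list (not all described), markers of the transition, and the 5 largest differences in each direction between settings or lines. Further members (such as IFIT1, OAS3, LDHA, KRT8, COL5A2) were named after their values were seen. The comparison, the gene lists and their members were chosen with earlier results of these data known. Of 244 named genes, 240 were found by symbol in GENCODE v29 (GRCh38), and 84 shared exon bases with another gene, 74 of them on the opposite strand. Alternatives were DESeq2 1.42.0, other size factors, no filter, the 6 libraries alone, a replicate block, leaving out each library and, for the lists, leaving out second-profile genes. A few results are not reported here. Promoters (250 bases before to 50 after the start) came from RefSeq, GRCh38.p14.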

Additional observations from a re-analysis of the deposited data

Results flagged for a closer look

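The change from siCont to siKLF10 libraries differed between settings or lines, by the test of the difference itself, for the genes below. In A549 the libraries labelled siKLF10 did not show a lower KLF10 level, so the differences between lines rest on the labels. The genes screened were KLF10, the 30 largest changes, the markers of the transition and the largest differences. Values are differences of log2 fold changes, and no explanation was tested.

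With TGFβ minus without it in Panc1, the difference was positive for TUBA4A (1.70), SERPINE2 (1.59), EPAS1 (1.55), NEDD9 (1.37), PDGFA (1.36) and ZEB1 (0.37). It was negative for TRANK1 (-1.48), XAF1 (-1.48), PADI2 (-1.31), SAMD9L (-1.31), BMF (-1.26), SYT5 (-1.23), FKBP7 (-0.82) and ITGB5 (-0.45). SERPINE2, NEDD9 and XAF1 are second-profile genes of the siCont libraries, which enter this difference. TUBA4A and PDGFA were not called without TGFβ (adjusted p = 0.55 and 0.84).

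In Panc1 minus A549, both without TGFβ, the difference was positive for C5 (3.65), IFI6 (2.20), KRCC1 (2.20), ZMAT1 (2.10), FKBP7 (2.02) and FN1 (0.54). It was negative for H19 (-2.87), CEND1 (-2.79), STAT5A (-2.45), RN45S (-2.40), VIM (-0.85), KLF10 (-0.68) and ZEB1 (-0.45). RN45S, also a second-profile gene, is ribosomal RNA, which poly(A) selection should remove, and neither line alone had it called (adjusted p = 0.31 in Panc1 and 0.083 in A549). H19 is a second-profile gene: its Panc1 change was -1.66, and -1.27 without siCont A.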

How the results depend on the processing

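The number of genes called after siKLF10 was 4700 and ran from 3722 to 4753 over all alternatives, from 3722 to 4383 when 1 library was left out (4208 without siCont A), and at 4165 with DESeq2. No named gene changed direction between the main fit and an alternative where either fit called it. Genes called in neither could change sign, as PDGFA did, from -0.16 to 0.13 over the alternatives. Of 229 named genes called, 182 kept their call in every alternative and 47 lost it in at least 1. The number whose effect differed with TGFβ was less stable: 584, with 349 (without siKLF10 with TGFβ B) to 1035 (without siKLF10 with TGFβ A) when 1 library was left out; it was 360 without siKLF10 C and 388, 375 and 386 without TGFβ A, B and C. In A549 the 2758 calls became 1673 with DESeq2 and 1326 to 1638 when 1 library was left out, which leaves a group with 1 sample assumed to vary like the others. The 2597 differences between lines became 1570 to 2512, lowest without A549 siKLF10 A (1570) and siCont B (1614). The cause of these moves was not tested. Pairing by letter was not seen: same-letter deviations of siCont A, B and C and siKLF10 correlated at 0.066, -0.078 and -0.002. Other letters reached -0.013, 0.067 and 0.132. With few libraries in each group, such correlations cannot exclude a shared day or culture. With a replicate block 4638 genes were called, 5511 with TGFβ, 565 for the difference between settings, 2973 in A549 and 2613 between lines. Totals of 11152625 to 14988120 counts limit what can be said of genes under 1 CPM, such as TRIM22.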
